A study of Sus scrofa with 24 samples.

Results

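The main effect of dietary resveratrol was measured in peripheral blood mononuclear cells (PBMNCs) of pigs on an atherogenic diet. It is the mean log2 intensity of 8 arrays from animals given resveratrol minus that of 8 arrays from animals not given it, which takes 16 of the 24 arrays of the study. The 4 groups form a factorial of resveratrol by grape extract: AD and AD-GE on the side without resveratrol, AD-RES and AD-GE-RES on the side with it. All 16 pigs ate the atherogenic diet for 4 months, a feed enriched with beef tallow (5.5%) and coconut oil (10%) and holding cholic acid (1%). AD had no supplement. AD-GE added a grape extract at 1 g per 70 kg of body weight, AD-RES added resveratrol at 18 mg per 70 kg, and AD-GE-RES added a resveratrol-enriched grape extract that supplied both at those doses. Each group held 4 pigs, 2 female and 2 male, with 1 Affymetrix array for each pig, so error terms measure the spread between animals. The remaining 2 groups, on standard chow without supplement (CT) or with the enriched extract (CT-GE-RES), entered the fit and are given as values. No genotype, strain or age of the animals is given in the labels, and since every one of the 16 pigs ate the fat-rich diet the comparison says nothing of resveratrol on chow by itself.

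Resveratrol is a stilbene polyphenol of grapes that is conjugated to glucuronides and sulfates in gut and liver soon after a meal. In cultured cells it is known to act on sirtuin and AMP-activated kinase pathways, to inhibit cyclooxygenases and cyclic AMP phosphodiesterases, to bind the aryl hydrocarbon receptor, and to lower NF-kappaB-driven cytokine transcription. PBMNCs are the lymphocytes and monocytes of blood, the cells that enter the arterial wall in atherosclerosis.

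The 16 arrays carried the transcripts of mononuclear cells. CD3E, a chain of the T cell receptor complex, lay between 9.51 and 10.79 on the log2 intensity scale, with a median of 10.19. The median was 8.59 for CD79B of the B cell receptor and 8.61 for the monocyte scavenger receptor CD163, while the monocyte co-receptor CD14 ranged from 4.65 to 8.16. Transcripts of other blood cells were present too: the median was 8.73 for HBB of red cells and 8.66 for the platelet chemokine PPBP, and ELANE of neutrophil granules was dim, with a median of 4.21. AD-GE-RES replicate 1 stood apart, with a mean correlation of 0.968 with the other arrays, against 0.974 to 0.980 for the other 15 of the factorial. Its monocyte genes averaged 0.60 above their mean over all arrays, while the other 3 arrays of its group lay between -0.29 and -0.19. The T cell genes of the same array averaged -0.70, the lowest of the 16 arrays. In bulk samples of this kind, fewer cells of a type and less RNA per cell cannot be told apart. The 3'/5' ratio of control transcripts, a measure of RNA integrity given here in log2, averaged 2.31 ± 0.92 (SD, n = 8) with resveratrol. Without resveratrol it averaged 2.32 ± 0.80 (SD, n = 8), a difference of -0.015 (exact permutation test within grape extract strata, two-sided p = 0.973). Single arrays ran from 1.62 to 4.08 with resveratrol and from 1.37 to 3.34 without it. The highest were AD-GE-RES replicates 2 and 1, both female, at 4.08 and 3.40. The males of that group, replicates 3 and 4, read 1.67 and 1.62.

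No gene passed the test for a resveratrol main effect. Among 17999 probe sets tested with limma, 0 reached a Benjamini-Hochberg adjusted p under 0.05 (0% called), and the smallest adjusted p was 1.00. At an unadjusted p under 0.05 there were 640 probe sets, 264 higher and 376 lower with resveratrol, or 3.56% of those tested; 900 would be reached with uniform p-values. Differences were small: their absolute median was 0.074 on the log2 scale, with a median standard error of 0.11, and 90% of them lay under 0.20. Only 49 probe sets differed by 1.5-fold or more. The 95% interval of the difference lay wholly within 1.5-fold for 90.3% of the probe sets and within 2-fold for 98.4%. In data simulated for this contrast with the same layout of arrays, the test called 20% of the transcripts changed by 1.25-fold, 70% of those changed by 1.41-fold and 98% of those changed by 2-fold. The simulated noise was normal and independent between probe sets, and 50 transcripts were changed at each size, up to 4-fold. With fewer changed transcripts the adjusted threshold is stricter, so these shares may be too high for the measured data.

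**Figure D1:**
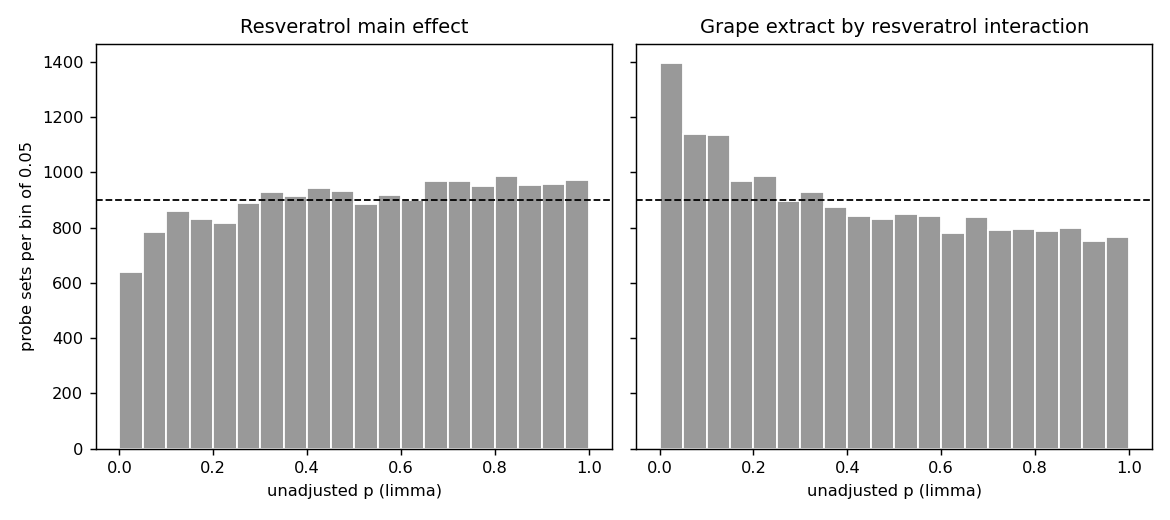
Number of probe sets in each bin of 0.05 of the unadjusted limma p-value, for the resveratrol main effect (left) and the grape extract by resveratrol interaction (right); the dashed line is the 900 probe sets a bin would hold if p-values were uniform. The lowest bin holds 640 probe sets for the main effect and 1394 for the interaction.

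The gene with the smallest p was ABCB1, which encodes P-glycoprotein, an ATP-driven efflux pump for drugs and other foreign compounds that lymphocytes also carry. Its log2 intensities were 5.81, 5.40, 6.23 and 6.18 in AD and 5.63, 5.81, 5.87 and 5.83 in AD-GE. They were 6.44, 7.00, 6.31 and 6.49 in AD-RES and 6.37, 6.37, 6.34 and 6.78 in AD-GE-RES. Every array with resveratrol was above every array without it. The difference was 0.67 ± 0.15 (SE), or 1.59-fold (95% interval 0.36 to 0.98 in log2), with an unadjusted limma p of 0.000208 and an adjusted p of 1.00. It was nearly equal without grape extract (0.66) and with it (0.68), and stood at 0.88 in females and 0.45 in males. Leaving out each array in turn moved it between 0.58 (without AD replicate 2) and 0.72 (without AD replicate 3), and with the 3 list means of erythroid, B cell and monocyte genes as covariates it was 0.59. On chow, ABCB1 read 6.76, 6.92, 6.60 and 6.56 in CT-GE-RES and 5.63, 6.66, 5.95 and 5.66 in CT, a difference of 0.73 ± 0.21 (SE) that also did not pass the test (limma adjusted p = 0.700). A single CT pig overlapped the range of the supplemented animals there.

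Across the 17999 probe sets, 3 had no overlap between the 8 arrays with and the 8 without resveratrol, or 0.0167%. They were singled out after their values were seen, and their number was not set against what random labels give. Beside ABCB1 they were a probe set that was 0.19 higher and another that was 0.27 lower, neither with a single gene symbol. A separation of 4 from 4 in both arms in the same direction was found for 7 probe sets (0.0389%), and in opposite directions for 18 (0.1%). Of the 4900 arrangements of labels within the arms, a share of 0.000408 separates both arms in the same direction. The 7 probe sets found are near that share, so such a separation by itself does not set a gene apart.

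**Figure D2:**
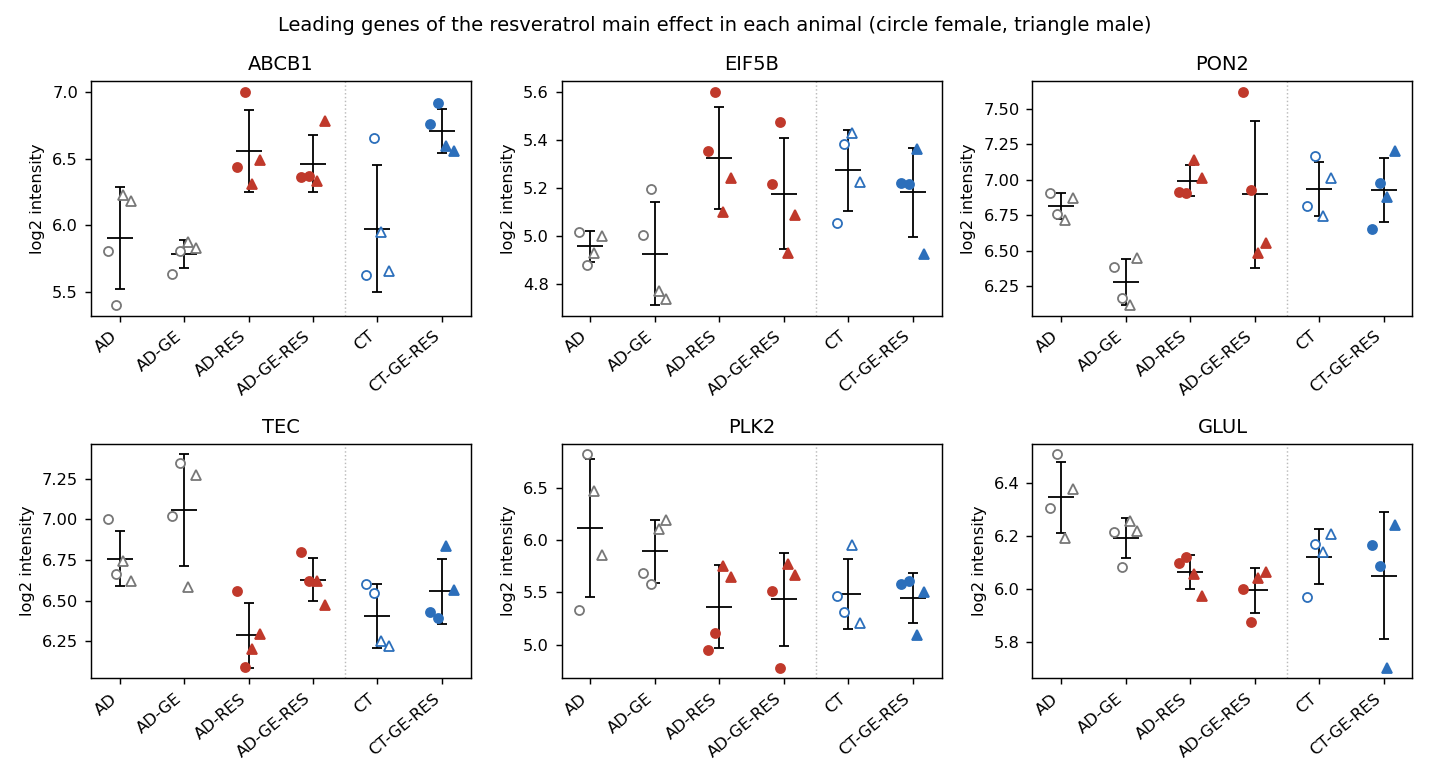
Log2 intensity of 6 leading genes in every pig of the 6 groups (circles female, triangles male; open without and filled with resveratrol; blue on chow), with group mean and SD as horizontal mark and error bar, 4 pigs a group. In ABCB1 the 8 red points, from 6.31 to 7.00, lie above the 8 grey ones, from 5.40 to 6.23; in the other 5 genes the ranges overlap.

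The 12 leading genes on the higher side, ordered by p, differed by 0.19 to 0.67 in log2, and none passed the test. PON2, an intracellular lactonase with antioxidant activity, read 6.91, 6.76, 6.72 and 6.87 in AD and 6.38, 6.17, 6.12 and 6.45 in AD-GE. With resveratrol it read 6.91, 6.91, 7.14 and 7.01 in AD-RES and 7.62, 6.93, 6.49 and 6.55 in AD-GE-RES. Beside grape extract all 4 arrays of AD-GE-RES were above all 4 of AD-GE, and without it the lowest arrays of AD-RES lay at the level of the highest of AD. The main difference of PON2 was 0.40 ± 0.13 (SE) with an unadjusted limma p of 0.00508, made of 0.18 without and 0.62 with grape extract (interaction at an unadjusted limma p of 0.0991). It was 0.28 without AD-GE-RES replicate 1, and on chow PON2 differed by -0.0049.

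EIF5B, the GTPase that joins the ribosomal subunits at the start of translation, ranged from 4.74 to 5.19 (median 4.96) without resveratrol and from 4.93 to 5.60 (median 5.23) with it, a difference of 0.31 ± 0.088 (SE). Of the 8 resveratrol arrays, 3 lay below the highest array of the other side. A brighter EIF5B probe set gave 0.21 ± 0.13 (SE), with an unadjusted limma p of 0.125. On chow the leading EIF5B probe set differed by -0.092. FKBP14, a prolyl isomerase of the endoplasmic reticulum, differed by 0.37 ± 0.12 (SE), and its second probe set gave the same 0.37. Both were dim, with means of 3.82 and 4.25 where probe sets under 3.57 were left out. HSPA6, an inducible Hsp70 chaperone, differed by 0.38 ± 0.13 (SE), from a median of 6.80 without resveratrol to 7.24 with it.

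GTPBP10, a GTP-binding protein of mitochondrial ribosome assembly, differed by 0.42 ± 0.14 (SE) on its leading probe set and by 0.35 ± 0.16 (SE) on the other. It was also 0.52 higher in CT-GE-RES than in CT. MAPK9, the stress-activated kinase JNK2, differed by 0.27 and the splicing factor PRPF18 by 0.25. SLC39A7, a zinc transporter of the endoplasmic reticulum and Golgi, differed by 0.22, and ARFIP1, which binds ARF-family GTPases at the Golgi, by 0.19. TMEM27, known as collectrin, differed by 0.53 and C1H6orf203 by 0.27. TMEM27 stood at 0.83 beside grape extract and at 0.23 without it, and the interaction of 0.60 ± 0.37 (SE) did not pass the test.

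On the lower side the leading gene was TEC, a cytoplasmic tyrosine kinase that acts below antigen and cytokine receptors. TEC read 7.00, 6.66, 6.74 and 6.62 in AD and 7.02, 7.34, 6.58 and 7.27 in AD-GE. It read 6.56, 6.09, 6.20 and 6.29 in AD-RES and 6.80, 6.62, 6.62 and 6.47 in AD-GE-RES. All 4 arrays of AD-RES were below all 4 of AD, while in the arm with grape extract AD-GE replicate 3 overlapped the AD-GE-RES range. The difference was -0.45 ± 0.11 (SE), with an unadjusted limma p of 0.000385 and an adjusted p of 1.00. It was made of -0.47 without and -0.43 with grape extract, and stood at -0.49 in females and -0.41 in males. On chow the sign was the other way: TEC stood 0.15 higher in CT-GE-RES than in CT.

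PLK2, a polo-like kinase first known as a serum-induced early gene, was the lower gene with the largest difference of the 12. It ranged from 5.33 to 6.82 (median 5.98) without resveratrol and from 4.78 to 5.77 (median 5.58) with it. The resveratrol side reached lower, but AD replicate 1, AD-GE replicate 1 and AD-GE replicate 2 lay within its range. The difference was -0.61 ± 0.18 (SE), and it was -0.76 without and -0.46 with grape extract. Leaving out AD replicate 2 brought it to -0.46.

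GLUL, glutamine synthetase, a gene that glucocorticoids induce, separated 4 from 4 in each arm. It read between 6.09 and 6.51 (median 6.24) without and between 5.88 and 6.12 (median 6.05) with resveratrol, a difference of -0.24 ± 0.075 (SE). The 2 brighter GLUL probe sets gave -0.16 and -0.047, neither at an unadjusted p under 0.05. LMO4, a LIM-domain transcription cofactor, differed by -0.40 on its leading probe set, by -0.20 on a dimmer one and by -0.072 on the brightest. CPD, carboxypeptidase D, differed by -0.27 on the leading probe set and by 0.094 on the brightest, so its probe sets disagree in sign.

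In 3 more lower genes the difference lay in a single arm. SYS1, a Golgi membrane protein, stood at -0.56 without grape extract and at 0.0255 with it. TRAM1, a protein of the translocation channel of the endoplasmic reticulum, stood at -0.028 and -0.68, and its other 3 probe sets read 0.072 to 0.11 in the main effect. EIF4H, which helps the EIF4A helicase at the cap, stood at -0.028 and -0.75, with -0.056 on its brighter probe set. The interaction had an unadjusted limma p of 0.00196 for SYS1, 0.00694 for TRAM1 and 0.00714 for EIF4H, and none passed after adjustment. LOXL4, a lysyl oxidase, PCED1A, LRRC43 and TNNC1, the troponin C of slow muscle, differed by -0.24 to -0.27 on their leading probe sets. The brightest PCED1A probe set gave -0.038, and the other 2 of LOXL4 gave -0.10 and -0.13.

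The 24 leading genes were chosen on the main effect, so their order and size are a description. Their differences had the same sign in both arms for 23 of 24, SYS1 being the exception, and in both sexes for 24, which the choice favours. The chow groups share no array with the factorial. There, CT-GE-RES minus CT had the sign of the main effect for 18 of the 24, 10 of the higher and 8 of the lower, beside 59.6% of all probe sets tested. At an unadjusted limma p under 0.05 the chow contrast, in which 6.8% of probe sets lie, held ABCB1, GTPBP10 and LOXL4 of the 24. Of 10 leading genes with several probe sets, 8 agreed in sign on all of them, and 2, FKBP14 and GTPBP10, lay at an unadjusted p under 0.05 on all of them. Among the 24 probe sets with the smallest p, 15 had no single gene symbol and are not named.

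Genes through which resveratrol is known to act were then read in the main effect, from a panel of 27, of which 21 were measured. None of the 21 lay at an unadjusted p under 0.05, beside 3.56% of all probe sets; 8 were higher and 13 lower. For 12 of them the 95% interval stayed within 1.5-fold, and for 18 within 2-fold. SIRT1, NFE2L2 and CYP1B1 had no probe set with a single symbol, and PPARGC1A and CYP1A1 were below the filter on dim probe sets.

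Of the energy-sensing genes, PRKAA1, a catalytic subunit of AMP-activated kinase, differed by 0.13 (95% interval -0.11 to 0.37) and the transcription factor FOXO1 by 0.031 (-0.19 to 0.25). Both intervals exclude a change of 1.5-fold. The wider list of sirtuin, AMP-activated kinase and FOXO genes had a median of 0.028 over 16 measured genes, 9 of them higher and 0 at an unadjusted p under 0.05. AHR, the aryl hydrocarbon receptor, differed by -0.17 (-0.36 to 0.017), and lay at -0.007 without and -0.34 with grape extract.

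Of antioxidant genes, CAT, catalase, differed by 0.0096 (-0.24 to 0.26) and NQO2, a quinone reductase that binds resveratrol, by 0.0043 (-0.26 to 0.27). NQO1, the related quinone reductase, differed by 0.22 with a wide interval (-0.55 to 0.99), and stood at -0.50 in females and 0.93 in males. SOD2, the mitochondrial superoxide dismutase, had a main difference of -0.019 (-0.32 to 0.28) that averaged 2 opposite values. It read 11.31, 11.10, 10.86 and 11.04 in AD against 10.22, 10.26, 10.63 and 10.68 in AD-RES, with no overlap. Beside grape extract it read 9.78, 10.07, 10.32 and 10.48 in AD-GE against 11.39, 10.58, 10.59 and 10.46 in AD-GE-RES, where a single pair of arrays crossed. The difference of SOD2 was therefore -0.63 in the arm without extract and 0.59 in the other. The interaction was 1.22 ± 0.29 (SE) with an unadjusted limma p of 0.00037, and it did not pass after adjustment; without AD-GE-RES replicate 1 it was 1.00.

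None of the inflammatory genes of the panel passed the test, and their intervals were wide. IL1B, the interleukin-1 beta precursor, ranged from 8.14 to 9.51 (median 8.76) without resveratrol and from 7.34 to 9.41 (median 8.50) with it, a difference of -0.53 ± 0.39 (SE) with a 95% interval of -1.34 to 0.27. A dimmer IL1B probe set read -0.64 ± 0.28 (SE), at an unadjusted limma p of 0.0352. PTGS2, the inducible cyclooxygenase, differed by -0.41 (-1.06 to 0.23), TNF by -0.26 (-0.70 to 0.19) and CXCL8, the neutrophil chemokine, by -0.15 (-1.49 to 1.18). For these 4 genes a 1.5-fold lowering lies inside the interval and is not excluded. Without AD-GE-RES replicate 1 the difference was -0.63 for PTGS2 (an unadjusted limma p of 0.0396), -0.43 for TNF (an unadjusted limma p of 0.0296) and -0.62 for CXCL8, and none passed after adjustment. Of the arrays left out in turn, this one gave the lowest value for each of them. At the other end, PTGS2 stood at -0.27 without AD-RES replicate 2 and TNF at -0.13 without AD-GE-RES replicate 2. CXCL8 stood at 0.20 without AD-GE replicate 4. With an array left out, the unadjusted limma p reached 0.40 for PTGS2, 0.52 for TNF and 0.996 for CXCL8.

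NFKBIA, the inhibitor of NF-kappaB that NF-kappaB itself induces, differed by -0.33 (-0.68 to 0.034), as the mean of -0.69 without grape extract and 0.043 with it. ICAM1, the endothelial and leukocyte adhesion molecule, stood at -0.71 and 0.31 in the same order, and HMOX1, heme oxygenase, at -0.64 and 0.25. AD-GE-RES replicate 1 had the highest NFKBIA, ICAM1 and HMOX1 intensity of its group. Without that array the main difference was -0.46 for NFKBIA (an unadjusted limma p of 0.00668) and -0.42 for ICAM1 (an unadjusted limma p of 0.0156), and -0.37 for HMOX1 (an unadjusted limma p of 0.0538). Leaving out any other array gave smaller differences for these genes. The smallest were -0.22 for NFKBIA (without AD-GE-RES replicate 2), -0.10 for ICAM1 (without AD-GE-RES replicate 3) and -0.051 for HMOX1 (without AD-RES replicate 1). With an array left out, the unadjusted limma p reached 0.195 for NFKBIA, 0.659 for ICAM1 and 0.799 for HMOX1.

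**Figure D3:**
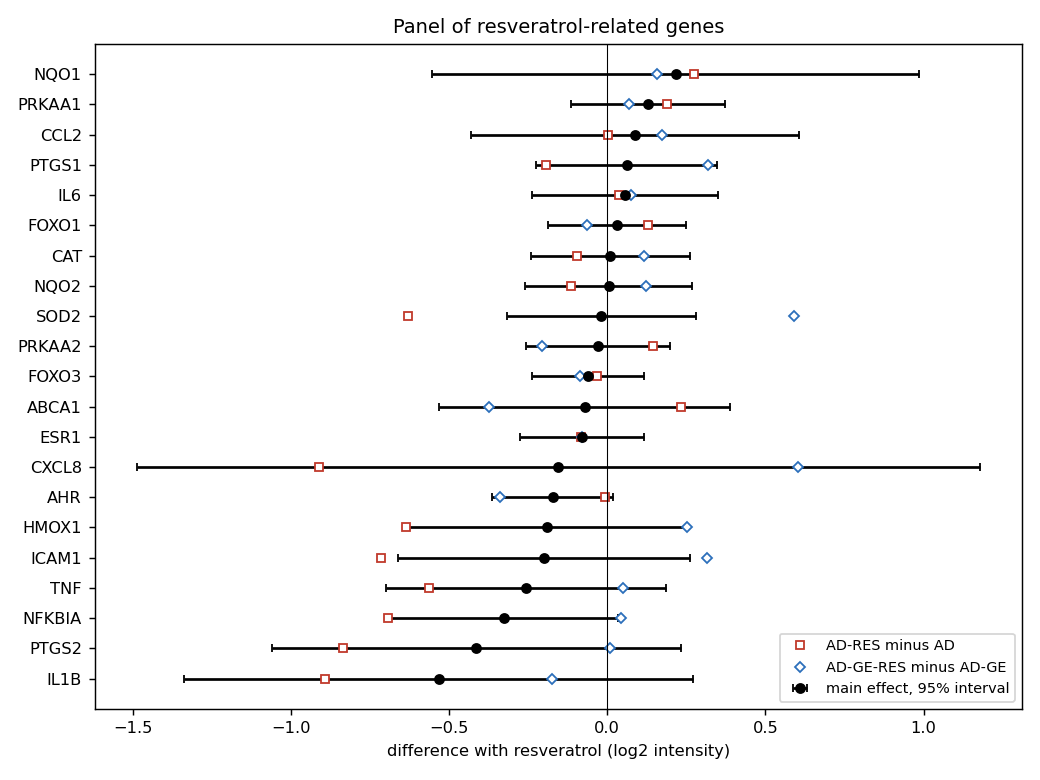
Difference with resveratrol (log2 intensity) of the 21 measured panel genes: black points and bars are the main effect with its 95% interval, open squares AD-RES minus AD and open diamonds AD-GE-RES minus AD-GE. All 21 bars cross 0, and for SOD2 the squares and diamonds lie at -0.63 and 0.59, outside the bar on either side.

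The gene lists gave the same picture of small main differences. Over 6033 genes, each by its brightest probe set, the median was 0.011 and 3292 genes (54.6%) were higher. At an unadjusted limma p under 0.05, 105 were higher and 72 lower. By arm, the median of the 6033 genes was -0.019 without grape extract, with 2739 higher, and 0.046 with it, with 3658 higher. The arms of many lists below lie on these same sides of 0. Of 37 lists with at least 5 measured genes, the panel being 1 of them, the 5 with the lowest medians were immediate early, glucocorticoid response, neutrophil, inflammatory and cyclic AMP genes.

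Immediate early genes, the transcription factors and feedback inhibitors induced within minutes of stimulation, had a median of -0.22, and 19 of 20 measured were lower. At an unadjusted limma p under 0.05, 2 of the 20 were lower, beside 72 of the 6033 genes and 2.09% of all probe sets, and 0 were higher. SOCS3, an inhibitor of cytokine signalling, ranged from 3.84 to 4.32 (median 4.04) without and from 3.40 to 4.09 (median 3.73) with resveratrol, a difference of -0.30 ± 0.11 (SE). ZFP36, which destabilises cytokine mRNAs, differed by -0.34 ± 0.15 (SE). ATF3, a stress-induced transcription factor, differed by -0.39 ± 0.21 (SE), with -0.78 in females and -0.0044 in males. The median of the list was -0.38 without grape extract and -0.10 with it. Without AD-GE-RES replicate 1 it was -0.35 in the main effect and -0.19 beside grape extract.

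Genes that glucocorticoids induce had a median of -0.16, with 14 of 17 measured lower. PER1, a clock gene with glucocorticoid response elements, ranged from 10.08 to 10.98 (median 10.62) without and from 9.49 to 11.16 (median 9.98) with resveratrol, a difference of -0.46 ± 0.18 (SE). Its highest value on the resveratrol side belonged to AD-GE-RES replicate 1, and a dimmer PER1 probe set gave -0.08. FKBP5, a co-chaperone of the glucocorticoid receptor, differed by -0.36 ± 0.16 (SE) and by -0.32 on a dimmer probe set. CXCR4, a chemokine receptor that keeps leukocytes in marrow, differed by -0.29 ± 0.15 (SE), with 0.0047 in females and -0.58 in males. By arm, the median was -0.49 without grape extract and 0.043 with it. Without the extract 8 of 17 genes lay lower at an unadjusted limma p under 0.05, beside 219 of the 6033 genes and 2.65% of all probe sets. With the extract 0 did. The monocyte marker list had medians of -0.49 and 0.22 in the same arms, and its part in the result was not tested.

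In the list of NF-kappaB and cytokine genes 14 of 18 were lower, with a median of -0.12, made of -0.51 without and 0.047 with grape extract. CCL3L1, a chemokine, differed by -0.40 ± 0.25 (SE), by -0.64 without AD-GE-RES replicate 1 and by -0.24 without AD-GE-RES replicate 4. TNFSF10, the death ligand TRAIL, differed by 0.55 ± 0.29 (SE). TNFSF10 also belongs to the interferon list. Without AD-GE-RES replicate 1 the median of the list was -0.35 in the main effect and -0.18 in the arm with grape extract, where 6 of 18 rather than 12 of 18 genes were higher.

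Of cyclic AMP genes, PDE4B, the main phosphodiesterase of activated leukocytes, ranged from 7.54 to 8.93 (median 8.20) without and from 6.96 to 9.25 (median 7.54) with resveratrol, a difference of -0.52 ± 0.22 (SE). The value of 9.25 was again AD-GE-RES replicate 1, and 7 of 8 resveratrol arrays were below the median of the others. CREM, a cyclic AMP responsive transcription factor, differed by -0.37 ± 0.23 (SE) on its brightest probe set and by -0.28, 0.16 and 0.14 on the other 3, so its probe sets disagree in sign. PDE4A differed by -0.10 ± 0.082 (SE). Without AD-GE-RES replicate 1 the difference was -0.64 for CREM (an unadjusted limma p of 5.39e-05) and -0.76 for PDE4B (an unadjusted limma p of 3.50e-05), neither passing after adjustment. Of the arrays left out in turn, this one gave the largest difference for both genes. The smallest was -0.25 for CREM (without AD-GE-RES replicate 2) and -0.40 for PDE4B (without AD replicate 4). The largest unadjusted limma p with an array left out was 0.287 for CREM and 0.0835 for PDE4B. The median of the 9 measured genes was -0.076, and -0.031 without AD-GE-RES replicate 1.

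At the other end stood the platelet, sterol synthesis, mitochondrial biogenesis, interferon and fatty acid oxidation lists. Sterol synthesis genes had a median of 0.12, with 9 of 15 higher and 0 at an unadjusted p under 0.05; their median was 0.0053 without AD replicate 1 and 0.074 without AD-GE-RES replicate 1. HMGCS1, an early enzyme of the pathway, stood at 0.31 ± 0.18 (SE), FDFT1, squalene synthase, at 0.17 ± 0.11 (SE), and FDPS, farnesyl diphosphate synthase, at 0.15 ± 0.11 (SE). HMGCS1 stood at 0.65 beside grape extract and at -0.037 without it (interaction at an unadjusted limma p of 0.0771), with AD-GE-RES replicate 2 at 7.41 and the rest of that group at 5.85 to 6.22.

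In the fatty acid oxidation list 19 of 25 genes lay on the higher side and the median was 0.08. ACAA2, the thiolase of mitochondrial beta-oxidation, stood at 0.19 ± 0.10 (SE), ACSL3, an acyl-CoA synthetase, at 0.24 ± 0.13 (SE) and HADHB, a subunit of the trifunctional protein, at 0.12 ± 0.07 (SE). The median of the list was -0.0045 without and 0.15 with grape extract. In the arm with extract 4 genes were higher at an unadjusted limma p under 0.05, beside 240 of the 6033 genes and 2.8% of all probe sets. Of mitochondrial biogenesis genes 7 of 9 were higher, with a median of 0.091, and it was 0.015 when all probe sets of a gene were averaged. TFB1M, a mitochondrial rRNA methyltransferase, stood at 0.23 ± 0.14 (SE), and the matrix chaperones HSPA9 and HSPD1 at 0.11 each.

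Interferon response genes had a median of 0.082, with 16 of 24 higher. Their arms were opposite, -0.16 without and 0.27 with grape extract, and without AD-GE-RES replicate 1 the main median was 0.0073. PARP9 differed by 0.26 ± 0.16 (SE) and DDX58, the viral RNA sensor RIG-I, by 0.23 ± 0.22 (SE). Proteasome subunits were mostly on the higher side, 32 of 38 with a median of 0.057, and single subunits ran from -0.44 to 0.16. PSMA3 (0.12) and PSMB10 (0.16) lay higher at an unadjusted limma p under 0.05, beside 105 of the 6033 genes and 1.47% of all probe sets. Oxidative phosphorylation subunits had 43 of 56 higher and a median of 0.035. Their arms were opposite, with a median of -0.0425 and 22 higher without grape extract, and 0.091 and 48 higher with it. The arm medians of all 6033 genes, -0.019 and 0.046, lay on the same sides. Transport and conjugation genes for stilbenes had a median of 0.0061 over 6 measured genes. Beside ABCB1, the efflux pump ABCG2 differed by -0.01 ± 0.089 (SE) and ABCC2 by 0.008 ± 0.12 (SE).

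**Figure D4:**
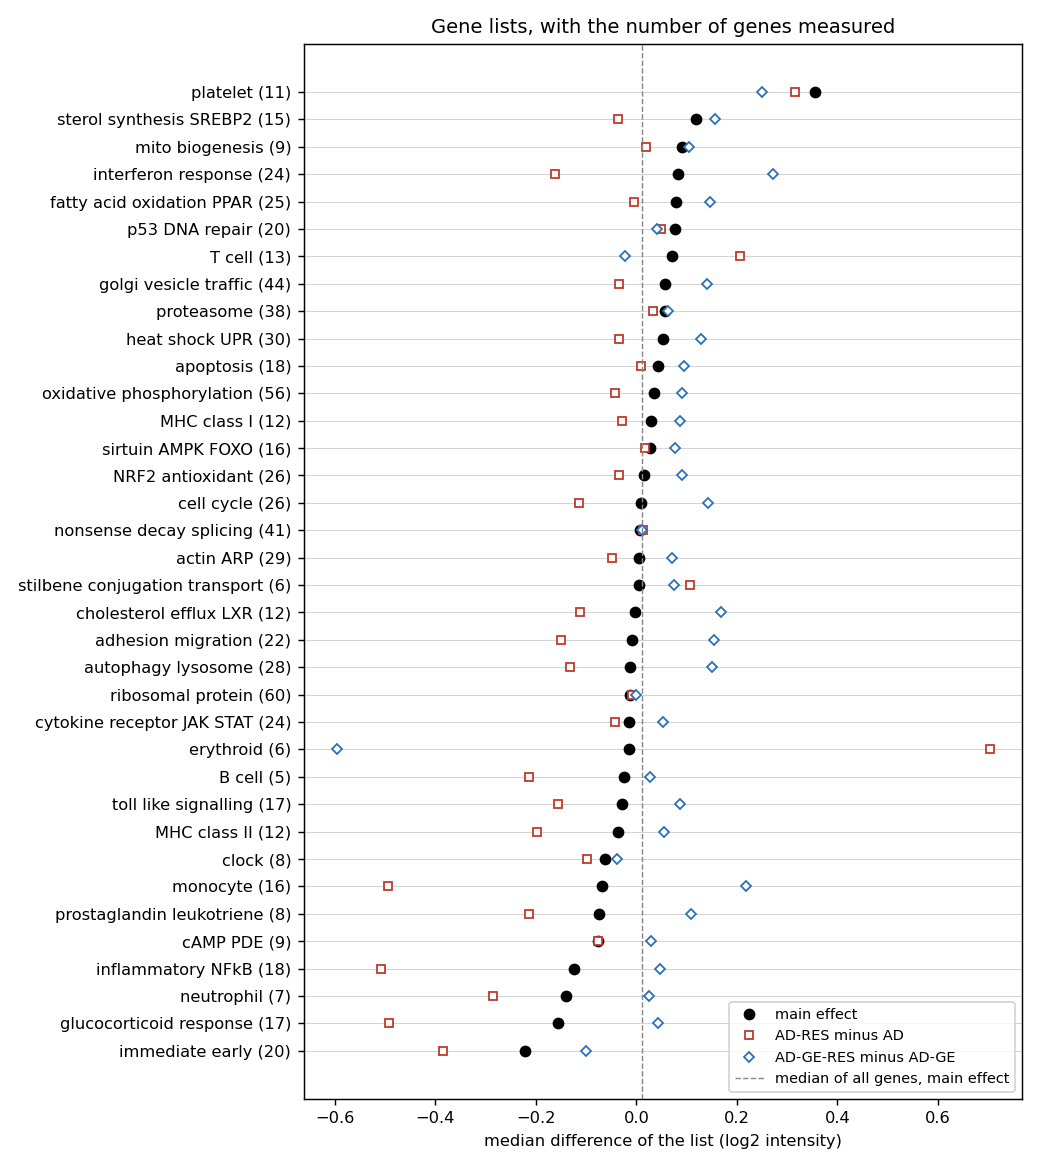
Median difference with resveratrol (log2 intensity) of each gene list with at least 5 measured genes, leaving out the panel, the number measured in brackets; filled circles are the main effect, open squares AD-RES minus AD, open diamonds AD-GE-RES minus AD-GE, and the dashed line the median of all genes. Circles lie between -0.22 (immediate early) and 0.36 (platelet), while the arms of the erythroid list lie at 0.70 and -0.60.

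Marker lists of blood cell types were read by arm and by sex as well, and their part in the gene results was not tested beyond the covariates named above. Platelet genes, 11 of 17 listed being measured, had a main median of 0.36 with 8 of 11 higher, and of 0.13 without AD-GE-RES replicate 1. In males the median was 1.38, with 8 of 11 genes at an unadjusted p under 0.05 and higher, in a contrast where 4.98% of probe sets lay under 0.05. In females it was -0.51, with 2 of 11 lower, where 6.93% did.

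For the adhesion receptor SELP the difference was 1.29 in males and -0.37 in females. It was 1.68 and -0.50 for VWF, von Willebrand factor, and 1.49 and -0.43 for CAVIN2. In the main effect the brightest VWF probe set, read here, gave 0.59 and the dimmer ones -0.14 and -0.051, so they disagree in sign. The sex by resveratrol interaction, in which 7.21% of probe sets lay at an unadjusted p under 0.05, had an unadjusted limma p of 0.00831 for SELP, 0.00545 for VWF and 0.0132 for CAVIN2. None passed after adjustment. The platelet list mean of each array, centred over all 24, was -1.11 to 0.77 with resveratrol and -1.53 to 0.80 without it.

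Erythroid genes had a main median of -0.016, with 0.70 without and -0.60 with grape extract; AD-RES replicates 3 and 4 held the highest list means of the factorial, 1.11 and 1.34. Monocyte genes, 16 of 24 listed being measured, had a main median of -0.069, with 15 of 16 lower without grape extract (median -0.49) and 15 of 16 higher with it (median 0.22). Their list means ran from -0.91 to 0.60 with resveratrol and from -0.60 to 0.48 without. Without AD-GE-RES replicate 1 the median with grape extract was -0.023, with 7 of 16 higher, and the main median was -0.22. Neutrophil genes had a main median of -0.14 over 7 measured of 15 listed, 3 of them higher and 4 lower. Their list means were -0.56 to 0.49 with resveratrol and -0.63 to 1.02 without. Of the lower members, CHI3L1, a secreted chitinase-like protein, stood at -0.71 ± 0.34 (SE), ELANE, neutrophil elastase, at -0.25 ± 0.09 (SE) and MMP9, a gelatinase, at -0.14 ± 0.10 (SE). MMP9 stood at -0.21 without AD-GE-RES replicate 1 and at -0.094 without AD-GE-RES replicate 2. The list median without AD-GE-RES replicate 1 was -0.21. T cell genes had a median of 0.071.

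The main effect averaged 2 arms that share no array. Without grape extract, AD-RES minus AD had 0 probe sets called, 801 at an unadjusted p under 0.05 (4.45%) and a smallest adjusted p of 0.980 with limma. With it, AD-GE-RES minus AD-GE had 0 called, 1145 at an unadjusted p under 0.05 (6.36%) and a smallest adjusted p of 0.327. Across the 17999 probe sets the differences in the 2 arms had the same sign for 44.0%, with Pearson's r of -0.223 and Spearman's rho of -0.201. Probe sets are not independent, and those of an arm share its 8 arrays.

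Leaving out each array in turn moved r between -0.313 (without AD-GE-RES replicate 4) and -0.031 (without AD-GE-RES replicate 1), where the same sign was found for 49.3%. Without AD replicate 3 it was -0.102, with the same sign for 50.1%. With the list means of those 3 cell types, erythroid, B cell and monocyte, as covariates r was -0.393, and with the 3'/5' ratio it was -0.2. Of 81 probe sets at an unadjusted p under 0.05 in both arms, 68 had opposite and 13 the same sign. The interaction itself had 0 probe sets called by limma (smallest adjusted p = 0.163), 1394 at an unadjusted p under 0.05 (7.74%), and 1176 without AD-GE-RES replicate 1.

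**Figure D5:**
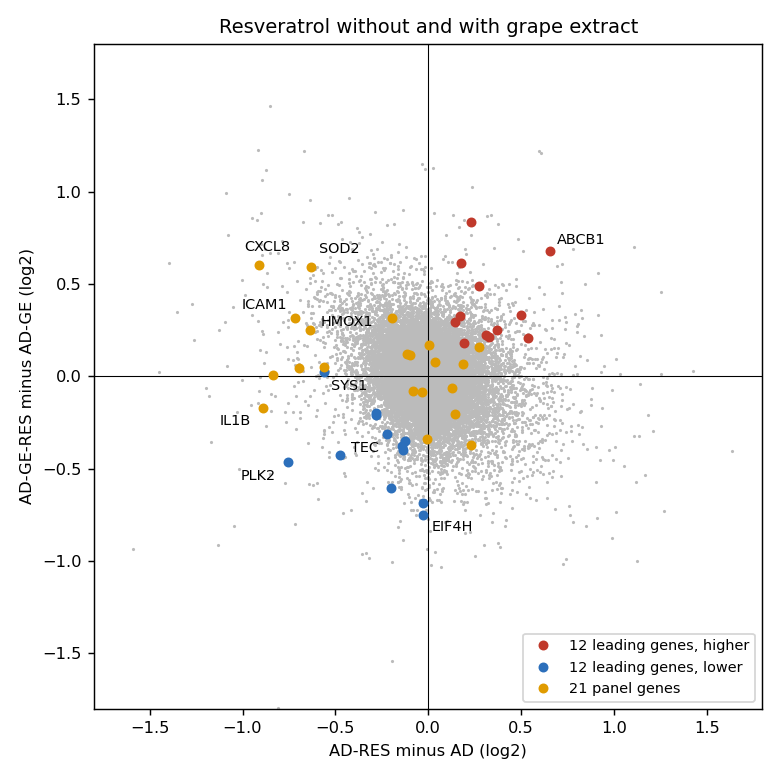
Difference with resveratrol without grape extract (x axis, AD-RES minus AD, log2) and with it (y axis, AD-GE-RES minus AD-GE, log2) for 17999 probe sets in grey, 1 of which lies outside the axes, with 24 leading genes in red and blue and 21 panel genes in yellow. ABCB1 lies at 0.66 and 0.68, near the diagonal, while SOD2 lies at -0.63 and 0.59, in the quadrant of opposite signs.

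Neither sex alone gave a called gene. In females 1247 probe sets lay at an unadjusted p under 0.05 and the smallest limma adjusted p was 0.0576; in males there were 896 and the smallest was 0.649. The 2 sexes had the same sign for 48.5% of the probe sets, with Pearson's r of -0.201 and Spearman's rho of -0.087. They too share no array. The grape extract main effect, measured on the same 16 arrays, had 0 called and 850 probe sets at an unadjusted p under 0.05 (4.72%).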

How the data were processed

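Total RNA of PBMNCs was hybridised to Affymetrix porcine arrays. The deposited values are linear intensity per probe set; the submitters' processing notes name RMA and GCOS, and no further step is stated in the sources used here. Values were taken to log2, and control probe sets were left out. The dimmest 25% by mean log2 were left out as well, which left 17999 probe sets, 8540 of them with 1 gene symbol. The number of arrays limits the precision. limma 3.58.1 in R 4.3.3 fitted 6 groups and sex to all 24 arrays, and p-values were adjusted by Benjamini-Hochberg over all probe sets; an adjusted p under 0.05 was called. A second fit had 12 diet and sex groups. The code was tested on simulated data.

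Named genes were the 12 with the smallest p in each direction, a panel of 27 resveratrol-related genes (1 is not reported here), and up to 3 members with the smallest p of the 5 lists at either end. In the panel and lists each gene was read on its brightest probe set. Members and lists were chosen with earlier results of these data known. Alternatives covered normalization, filters, covariates, weights, sexes, arms and each array left out. No batch is named in the labels.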

Additional observations from a re-analysis of the deposited data

Results flagged for a closer look

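In 19 of 320 groups of 4 arrays (5.94%), among the 73 named genes, the 3'/5' ratio and 6 cell type lists, a single array lay far from the other 3, by Dixon's criterion at 95%; chance gives about 1 in 20. AD-GE-RES replicate 1 was the high array in 5 of them: SOD2 at 11.39 (others 10.46 to 10.59), ICAM1 at 9.54 (7.84 to 8.08), PTGS1 at 5.19, SLC39A7 at 7.75 and the monocyte list mean at 0.60. AD-GE-RES replicate 4 was high for ABCB1 at 6.78 (others 6.34 to 6.37) and for TMEM27 at 5.95. AD-GE-RES replicate 2 was low for CXCR4 at 10.93 (others 11.90 to 12.05) and for DDX58 at 5.13, and AD-GE-RES replicate 3 was low for the estrogen receptor gene ESR1 at 3.50. In AD-RES, replicate 2 was high for TRAM1 at 7.26 and low for HSPA6 at 7.16, for PDE4A at 5.13 and for the cholesterol exporter ABCA1 at 5.91. Replicate 3 of that group was high for PRKAA1 at 6.26 and replicate 4 for AHR at 7.86. AD replicate 4 was low for PTGS2 at 4.63, and AD-GE replicate 2 was high for C1H6orf203 at 7.63 and AD-GE replicate 3 for TFB1M at 5.91. The ABCB1 array lies on the side of its group's difference.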

How the results depend on the processing

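The count of called probe sets was 0 under all 16 alternatives and with each of the 16 arrays left out. At an unadjusted limma p under 0.05 the main effect had 640 of 17999 probe sets, and 1201 without AD-GE-RES replicate 1, 1002 without AD replicate 3, 971 without AD-GE-RES replicate 3 and 419 without AD-GE-RES replicate 2. It had 1498 with array weights, 1090 with cell list means as covariates and 1402 with CT replicate 4 and AD-GE-RES replicate 1 left out (chosen after seeing the data). With the dimmest 50% left out it had 403, of a smaller number of probe sets than the 17999 of the main fit. It had 1247 in females alone, 1145 beside grape extract alone, and 171 of 6033 genes when all probe sets of a gene were averaged. The counts from these smaller sets cannot be set directly against the 640. No paired analysis was possible because replicate numbers only name the pigs in accession order.

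Of 73 named genes, 23 changed sign under some setting; the cause was not tested. Beside grape extract alone, the difference was 0.0255 for SYS1, -0.0653 for FOXO1, 0.25 for HMOX1, 0.59 for SOD2, 0.0078 for PTGS2, 0.0503 for TNF, 0.60 for CXCL8, 0.0431 for NFKBIA, 0.31 for ICAM1 and 0.0247 for CHI3L1. Without it, PRKAA2 stood at 0.15, NQO2 at -0.11, CAT at -0.10, PTGS1 at -0.19, ABCA1 at 0.23 and HMGCS1 at -0.0372. In females alone NQO1 stood at -0.50, SOD2 at 0.0476, CXCL8 at 0.53, ICAM1 at 0.0489, CXCR4 at 0.0047, SELP at -0.37, VWF at -0.50 and CAVIN2 at -0.43. In males alone PRKAA2 stood at 0.0589, NQO2 at -0.0360, CAT at -0.0269 and CCL2 at -0.14. Normalizing again gave -0.0178 for NQO2 and -0.0054 for CAT, array weights -0.0245 for NQO2 and -0.0396 for CCL2, and cell list means 0.0311 for SOD2 and -0.0043 for CAT. Leaving out both arrays gave -0.0723 for NQO1, -0.0431 for NQO2, -0.0473 for PTGS1 and -0.19 for CCL2. With each array left out, the range was -0.0844 to 0.0121 for PRKAA2, -0.0146 to 0.11 for FOXO1, -0.069 to 0.40 for NQO1, -0.0461 to 0.0835 for NQO2, -0.13 to 0.036 for SOD2, -0.0584 to 0.0897 for CAT, -0.0483 to 0.16 for PTGS1, -0.0067 to 0.10 for IL6, -0.62 to 0.20 for CXCL8, -0.19 to 0.24 for CCL2 and -0.21 to 0.0455 for ABCA1.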
